A study of Rattus norvegicus with 64 samples.

Results

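The J-domain co-chaperones are described here across whole blood from 64 rats in 5 treatment groups. Members were the genes whose symbol starts with Dnaj, that every deposited file lists, and that had at least 10 counts in at least 5 rats. Of 44 such symbols in any file, 40 were in every file and 38 had enough counts. The members were 4 Dnaja, 10 Dnajb and 24 Dnajc genes among 13978 genes that met the same minimum. Dnajb3 and Dnajc6 were listed in every file but had too few counts, and Dnajb7, Dnajb8, Dnajc5b and Dnajc5g were not in every file. Levels are given as CPM, in which the counts of each library are scaled to a common total, and are not per length. They are not adjusted for sequencing project, so the order of group means can differ from that of the fit. At least 10 counts were present in every rat for 28 of the 38 members.

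All animals were male Sprague-Dawley rats of 85 to 90 days that received 4 injections, and blood was drawn by cardiac puncture 3 h after the last. The Control group (n = 6) received saline at 22.5 °C and the Cool control group (n = 5) received saline at 16 °C. The environmentally-induced hyperthermia (EIH) group (n = 16) received saline at 39 °C. Amphetamine (AMPH) was given at 22.5 °C in the AMPH hyperthermic group (n = 22) and at 16 °C in the AMPH normothermic group (n = 15). The comparisons ask how the transcripts responded to a hot room, to AMPH with a rise in body temperature, and to AMPH in a room that kept body temperature down. Each value comes from a single rat at a single time.

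J-domain proteins are the partners that bring Hsp70 chaperones to their work. The J domain stimulates Hsp70 to hydrolyse ATP and so to close on a client protein, while the rest of the co-chaperone chooses the client or the place. Dnaja proteins carry a zinc-binding region and a stretch rich in glycine and phenylalanine beside the J domain, Dnajb proteins carry that stretch without the zinc-binding region, and Dnajc proteins share little with each other beyond the J domain. Some of the cytosolic members are textbook targets of heat shock factor 1, which binds inverted repeats of the letters GAA. Several members of the endoplasmic reticulum (ER) are textbook targets of the unfolded protein response, which acts through the ER stress response elements.

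The start-site sequences of 4 members are shown because these genes led the heat and ER groups of results. Windows from 250 bases before to 50 bases after the annotated start were taken from RefSeq (GRCr8), where 29 of the 38 members matched by symbol. Capitals mark the letters searched on both strands, which were GAANNTTC or TTCNNGAA (the paired heat shock element), 3 alternating GAA and TTC units with 2 bases between neighbours (its 3-unit form), CCAAT and CCACG with 9 bases between them (the ER stress response element) and ATTGG and CCACG with 1 base between them (form II of that element).
Dnaja1 (chr5:60638405-60638434, plus strand): gccgggcgGAACTTTCCAGAAcgctcggtg
Dnajb1, upstream match (chr19:41431134-41431163, minus strand): cgggaggggcgGAAGGTTCtggagggctgg
Dnajb1, downstream match (chr19:41431106-41431135, minus strand): ggcgggatctgGAAGCTTCcgccggacggg
Dnajc3 (chr15:102432529-102432558, plus strand): caaagCCAATCAGCGCCAACCACGacccag
Dnajb11 (chr11:91672790-91672819, minus strand): caggcggcgATTGGCCCACGcctggctgct
The Dnaja1 site began at base 10 of the annotated transcript and the upstream Dnajb1 site 11 bases before the start, with the other at base 18 of the transcript. The Dnajc3 and Dnajb11 sites began 133 and 10 bases before the start.

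The paired heat shock element was held by 5 of the 29 member windows (17.2%) and by 15.9% of all 33469 windows. Its holders were Dnaja1, Dnajb1, Dnajb6, Dnajc18 and Dnajc27. The 3-unit form, which contains the paired form, was found in 0.798% of all windows and among the members in Dnaja1 alone. The ER stress response element was found in 0.0657% of all windows and form II in 0.0508%, with Dnajc3 and Dnajb11 as their only member windows. The Dnaja4 and Dnajb9 windows held none of these letters. A match of letters is a description of the window and not a measured binding site.

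Total counts ran from 19055615 to 40530319 per rat. All markers on the lists for T cells, B cells, monocytes, neutrophils and platelets were above 0 in every rat, as whole blood should give. Heart muscle could enter a cardiac puncture, and 5 rats with over 5000 counts of Mb (myoglobin), the study's own limit, were left out of the fit, which left 4 Control, 5 Cool control, 13 AMPH normothermic, 22 AMPH hyperthermic and 15 EIH rats. Some reads of 33 members were shared with similar sequences, by counts that were not whole in at least 1 rat (43 of 64 rats for Dnaja1 and 57 for Dnajb1), so the values of these members hold a part that the counting had to divide. The libraries came from 14 sequencing projects, 13 of them with rats in the fit, and project was a term of the fit. The library labelled AMPH hyperthermic replicate 17 went against its label: its Hspa1b was at 0.278 CPM, against 0.356 to 0.68 in the Control rats and a median of 316 in its own group, and its Dnaja1 value was 48.2 against 40.8, 55.8, 119 and 95.8 in the 4 Control rats. Calls in the comparisons with Control rats, and some other values below, are given with and without it. It was singled out by its own Dnaja1 and Hspa1b values. Larger differences of the heat-inducible members without it are therefore no support for them. The library labelled AMPH hyperthermic replicate 21 stood apart in other members: its Dnajc16 was at 0, its Dnajc13 at 0.984 and its Dnaja3 at 1.59 CPM, each the lowest of its group. That library was the only rat of its project, so it had no weight in the differences between groups. The same held for AMPH normothermic replicate 10, the only rat of the other project with 1 rat in the fit.

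Across the 5 groups, 12 of the 38 members changed (edgeR quasi-likelihood F test, Benjamini-Hochberg adjusted p under 0.05), beside 25.3% of all genes tested. They were 2 of 4 Dnaja genes (Dnaja1 and Dnaja4), 2 of 10 Dnajb genes (Dnajb1 and Dnajb11) and 8 of 24 Dnajc genes (DNAJC9, Dnajc3, Dnajc13, Dnajc10, Dnajc16, Dnajc12, Dnajc27 and Dnajc24). Read against that background, the members' count of 12 in 38 was not far from the share of all genes. The fitted group means of Dnaja1 spanned 3.95 on the log2 scale and those of Dnajb1 2.15. In this fit, only 9 members passed in any comparison of 2 groups, and 25 members passed nowhere.

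Dnaja1, a cytosolic co-chaperone of the heat shock 70 proteins, had the widest spread of group means among the members. Its CPM were 40.8, 55.8, 119 and 95.8 in the Control rats. In Cool control rats they were 123, 146, 155, 103 and 112. AMPH normothermic rats had 79.7 to 283 (median 147). The ranges of these 3 groups overlapped. AMPH hyperthermic rats had 48.2 to 2591 (median 811) and EIH rats 456 to 4032 (median 1194). All 15 EIH rats were above every Control and every AMPH normothermic rat, while 20 of 22 AMPH hyperthermic rats were above every Control rat. The AMPH hyperthermic rats within the Control range were replicates 16 (118) and 17 (48.2).

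Dnajb1, the canonical heat-inducible Hsp40, showed the same order of groups over a narrower range. Control rats had 20.5, 22.9, 21.7 and 24.4 CPM and Cool control rats 35.6, 29.7, 32.6, 27.9 and 25.0. The Cool control values were all above those of the Control rats of the fit. The Control replicates left out for Mb, 20 (32.0) and 22 (31.0), lay within the Cool control range. No sequencing project held both groups, and the share of all genes without overlap between them was not counted. The difference did not pass the test (0.19 ± 0.59 log2, adjusted p = 0.95). AMPH normothermic rats had 23.0 to 45.6 (median 30.7), AMPH hyperthermic rats 20.3 to 379.6 (median 101) and EIH rats 49.6 to 413 (median 156). 21 of 22 AMPH hyperthermic rats and all 15 EIH rats were above every Control rat.

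Dnaja4 is a cytosolic relative of Dnaja1. Control rats had 11.1, 21.4, 15.3 and 14.6 CPM and Cool control rats 18.4, 23.9, 31.1, 16.9 and 15.8. AMPH normothermic rats had 15.0 to 35.4 (median 25.1), AMPH hyperthermic rats 12.9 to 64.9 (median 44.8) and EIH rats 38.2 to 180.2 (median 57.5). The EIH values did not overlap with those of Control or AMPH normothermic rats, and 19 of 22 AMPH hyperthermic rats were above every Control rat.

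**Figure D1:**
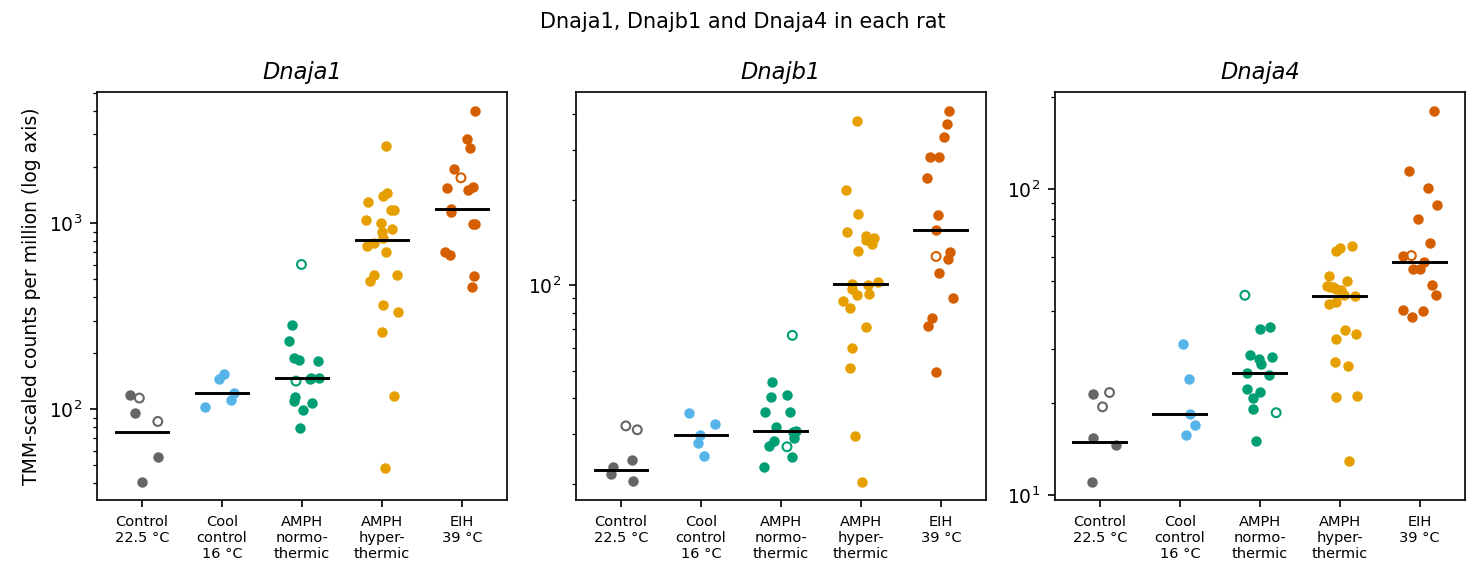
CPM (log axis) of Dnaja1, Dnajb1 and Dnaja4 by treatment group, 1 point per rat. Filled points were in the fit, hollow points are the 5 rats left out for Mb, and lines are medians of the filled points. For Dnaja1 the medians were 75.8 in Control and 1194 in EIH rats, and the 2 lowest AMPH hyperthermic rats lie among the Control rats.

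EIH rats, in a hot room without drug, had more Dnaja1, Dnajb1 and Dnaja4 than Control rats and less DNAJC9. In EIH against Control rats, 3 members were higher, beside 1.94% of all genes, and 1 was lower, beside 0.93% (2.87% in either direction). Dnaja1 was higher by 3.95 ± 0.72 log2 (± standard error), a fold of 15.5 (adjusted p = 0.0037). Dnajb1 was higher by 2.15 ± 0.47 (adjusted p = 0.016) and Dnaja4 by 1.66 ± 0.39 (adjusted p = 0.02). DNAJC9, spelled in capitals in the files, is a co-chaperone for histones, and it was lower, with a log2 difference of -1.18 ± 0.27 (adjusted p = 0.018). These 4 members were also those whose EIH and Control rats did not overlap, which held for 3.53% of all genes. No sequencing project held both groups, so the fit joined them through AMPH hyperthermic rats that shared projects with each. Without Control replicate 21, Dnaja1 alone remained past the threshold (log2 3.88, adjusted p = 0.048), and 0.0358% of all genes passed. Without the library labelled AMPH hyperthermic replicate 17 the count was 8 members, beside 14.2% of all genes, and the differences were 4.17 for Dnaja1, 2.36 for Dnajb1, 1.85 for Dnaja4 and -1.29 for DNAJC9. The others that then passed were lower. They were Dnajc18 (-1.53, adjusted p = 0.015), Dnajc27 (-1.37, adjusted p = 0.027), Dnajc24 (-1.16, adjusted p = 0.038) and Dnajc10 (-0.62, adjusted p = 0.040).

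EIH rats could be set against AMPH normothermic rats within 5 projects. Here 4 members were higher, beside 7.23% of all genes, and 2 lower, beside 7.06% (14.3% in either direction). Dnaja1 was higher by 3.13 ± 0.40 log2 (adjusted p = 2.0e-07), Dnajb1 by 1.79 ± 0.27 (adjusted p = 6.3e-06) and Dnaja4 by 1.15 ± 0.23 (adjusted p = 3.4e-04). Each of these genes was higher in all 5 projects, with Dnaja1 differences of 2.35 to 4.28 log2. The 3 genes were the members without overlap between the groups, against 0.851% of all genes. Dnajc13, an endosomal J-domain protein, was higher by 0.48 ± 0.13 (adjusted p = 0.0075). DNAJC9 (-0.74 ± 0.16, adjusted p = 9.3e-04) and Dnajc10, an ER reductase (-0.47 ± 0.13, adjusted p = 0.0072), were lower. This comparison differs in room temperature and in drug.

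AMPH at 22.5 °C gave the same 3 cytosolic members as EIH against Control, and 1 of the ER. Both comparisons used the same Control rats, and that of EIH was joined through AMPH hyperthermic rats. The shared members are therefore not an independent repeat. Against Control rats, 4 members were higher and 0 lower, beside 2.14% of all genes that were higher and 2.45% in either direction. The log2 difference of Dnaja1 was 3.24 ± 0.62, a fold of 9.46 (adjusted p = 0.0063). For Dnajb1 it was 2.01 ± 0.40 (adjusted p = 0.0088) and for Dnaja4 1.27 ± 0.32 (adjusted p = 0.029). Dnajc3, an ER-lumen co-chaperone known as an inhibitor of eIF2α kinases, was higher by 0.83 ± 0.22 (adjusted p = 0.033). Without the library labelled replicate 17 the differences were 3.46 for Dnaja1, 2.21 for Dnajb1, 1.45 for Dnaja4 and 0.95 for Dnajc3, and 8 members passed, beside 15% of all genes. Dnajb11 then passed as higher (0.76, adjusted p = 0.041) and Dnajc18 as lower (-1.15, adjusted p = 0.023), beside DNAJC9 and Dnajc27, which are given below.

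The comparison with Control rested on few rats in shared projects. One project held 6 AMPH hyperthermic and 3 Control rats, and another held 1 of each. The Dnaja1 difference was 2.44 log2 in the first and 3.61 in the second. Leaving out Control replicate 17 or 18 left 1 member past the threshold, beside 0.122% and 0.0787% of all genes, and leaving out replicate 21 left 0, beside 0.0572%, with Dnaja1 at 3.17 log2 (edgeR adjusted p = 0.087).

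Room temperature was compared under the same drug in 5 projects that held both groups. In AMPH hyperthermic against AMPH normothermic rats, 5 members were higher and 0 lower, beside 5.59% of all genes that were higher and 10.3% in either direction. Dnaja1 was higher by 2.43 ± 0.40 log2 (adjusted p = 7.8e-05), Dnajb1 by 1.65 ± 0.27 (adjusted p = 7.5e-05) and Dnaja4 by 0.76 ± 0.22 (adjusted p = 0.019). All 3 were higher in each of the 5 projects. Among the named members so were Dnajb11 and also Dnajc12, Dnajc13 and Dnajc16, of which the last 3 did not pass. Dnajb6 and Dnajc7 were lower in each of the 5 projects, without passing. Dnajb11, which binds unfolded proteins with Hspa5 in the ER lumen, was higher by 0.61 ± 0.18 (adjusted p = 0.023). Dnaja3, a mitochondrial partner of Hspa9, was higher by 0.38 ± 0.12 (adjusted p = 0.03). 19 of the 22 AMPH hyperthermic rats were above every AMPH normothermic rat of the fit in Dnaja1, 20 in Dnajb1 and 14 in Dnaja4. The Dnaja3 difference did not pass with project as a random block (limma-voom adjusted p = 0.077).

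AMPH normothermic rats had Dnaja1, Dnajb1 and Dnaja4 values that overlapped with those of Cool control rats. AMPH normothermic against Cool control rats gave 0 of 38 members by edgeR, beside 0.0% of all genes. At an unadjusted p under 0.05 (edgeR) there were 4 members, beside 1508 of the 13978 genes. DESeq2 also gave 0 members, beside 0.651% of all genes. The Dnaja1 difference was 0.16 ± 0.65 log2 and that of Dnajb1 0.17 ± 0.46. Only 1 AMPH normothermic rat shared a project with the Cool control rats. Cool control against Control rats, which shared no project, also gave 0 members by edgeR (0.00715% of all genes). At an unadjusted p under 0.05 there were 7 members, beside 1205 of the 13978 genes. DESeq2 gave 0 members there, beside 0.501% of all genes. The difference between the AMPH effects at 22.5 °C and at 16 °C was 3.08 ± 0.89 log2 for Dnaja1 (adjusted p = 0.41) and 1.84 ± 0.61 for Dnajb1 (adjusted p = 0.48). It passed for 0 members by edgeR (0.0% of all genes), with 5 at an unadjusted p under 0.05, beside 1038 of the 13978 genes. By DESeq2 it passed for 1 member, Dnaja1, beside 0.372% of all genes. Without the library labelled replicate 17 it was 3.31 ± 0.81 for Dnaja1 (adjusted p = 0.12) and 2.05 ± 0.56 for Dnajb1 (adjusted p = 0.18).

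AMPH hyperthermic and EIH rats differed in 1 member, Dnajb11, beside 2.73% of all genes (1.59% higher). It was higher with AMPH by 0.77 ± 0.17 log2 (adjusted p = 0.0091), in all 7 projects that held both groups. Among the named members DNAJC9 and Dnajc15 were also higher in all 7, without passing in this fit. Without the library labelled replicate 17 DNAJC9 passed as well, higher by 0.48 ± 0.14 (adjusted p = 0.046), and 3.01% of all genes did. For the cytosolic heat-inducible members the differences did not pass, at -0.71 ± 0.37 for Dnaja1, -0.15 ± 0.25 for Dnajb1 and -0.39 ± 0.22 for Dnaja4, which does not show that the 2 conditions acted alike.

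**Figure D2:**
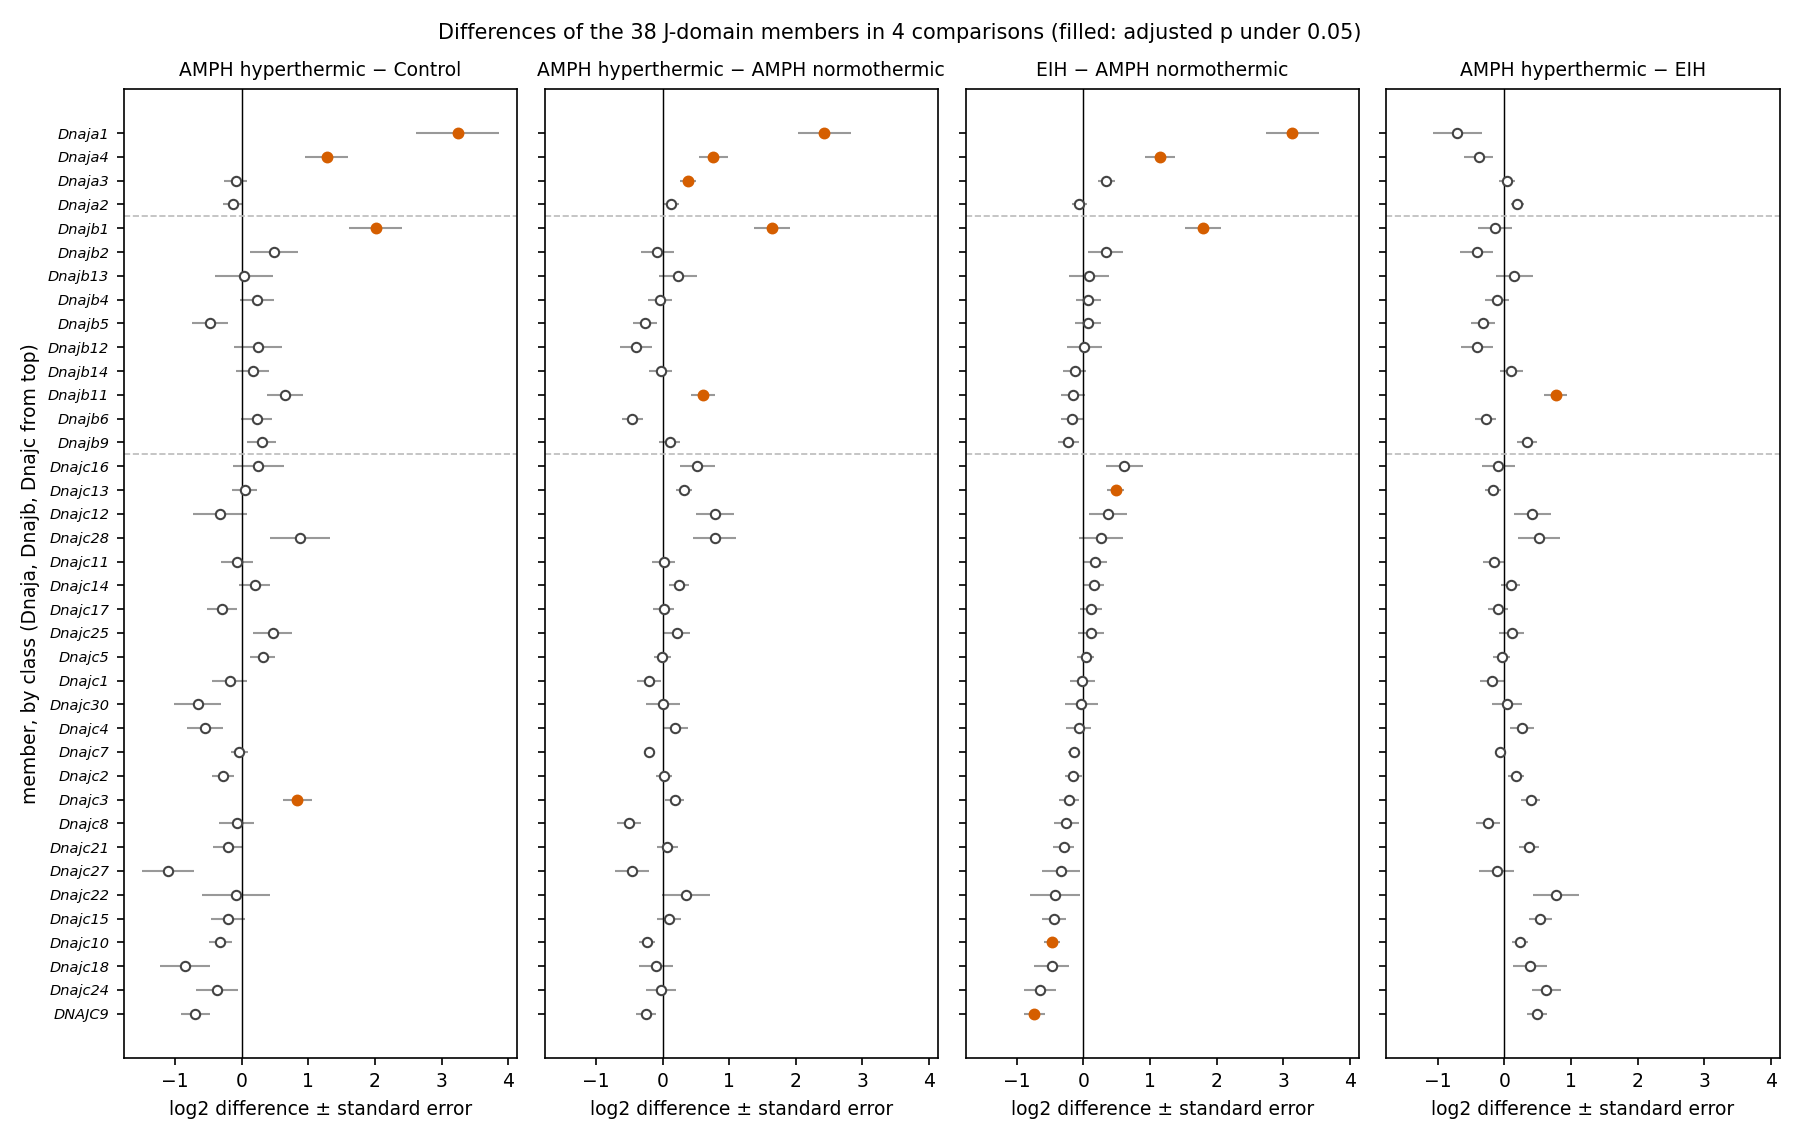
Log2 differences (x axis) with standard errors for the 38 members (y axis, by class) in 4 comparisons. Filled points had an adjusted p under 0.05. Dnaja1 lies furthest from 0 in the 3 panels that compare a hyperthermic with a non-hyperthermic group, and Dnajb11 is the filled point of AMPH hyperthermic against EIH.

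The ER members differed among themselves. Dnajb11 had 15.8, 13.7, 18.4 and 14.6 CPM in Control and 19.3, 22.2, 18.8, 25.2 and 18.1 in Cool control rats. It had 16.3 to 30.0 (median 20.8) in AMPH normothermic, 15.0 to 57.9 (median 28.1) in AMPH hyperthermic and 10.2 to 39.4 (median 19.5) in EIH rats. The AMPH hyperthermic group was the highest by median. The EIH median was close to the medians of Cool control and AMPH normothermic rats and above every Control rat of the fit. In the fit with the project term the EIH against Control difference of Dnajb11 was -0.12 ± 0.31 log2 (adjusted p = 0.84), opposite in sign to that of the CPM medians.

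Dnajc3 had 15.9, 16.6, 17.8 and 13.2 CPM in Control and 18.2, 20.2, 29.1, 31.1 and 18.5 in Cool control rats. Its range was 19.2 to 35.8 (median 27.8) in AMPH normothermic, 17.2 to 46.4 (median 29.8) in AMPH hyperthermic and 15.2 to 50.2 (median 22.4) in EIH rats. Every other group had a higher median than Control, and the AMPH hyperthermic rats overlapped with Control by replicate 17 (17.2). Dnajc10, which reduces disulfides of proteins due for degradation, had 17.6, 22.1, 19.2 and 16.9 in Control rats. It had 15.9, 14.1, 21.4, 21.7 and 16.8 in Cool control, 13.5 to 22.9 (median 19.4) in AMPH normothermic, 7.52 to 22.5 (median 15.2) in AMPH hyperthermic and 7.18 to 17.9 (median 12.5) in EIH rats, so that EIH had the lowest median. Dnajb9, an ER member induced in the unfolded protein response, passed in no comparison (overall adjusted p = 0.26). Its means were 9.44 ± 1.36 (SD, n = 4) in Control, 11.0 ± 1.15 (n = 5) in Cool control, 10.4 ± 2.36 (n = 13) in AMPH normothermic, 11.5 ± 4.69 (n = 22) in AMPH hyperthermic and 9.77 ± 2.68 (n = 15) in EIH rats.

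**Figure D3:**
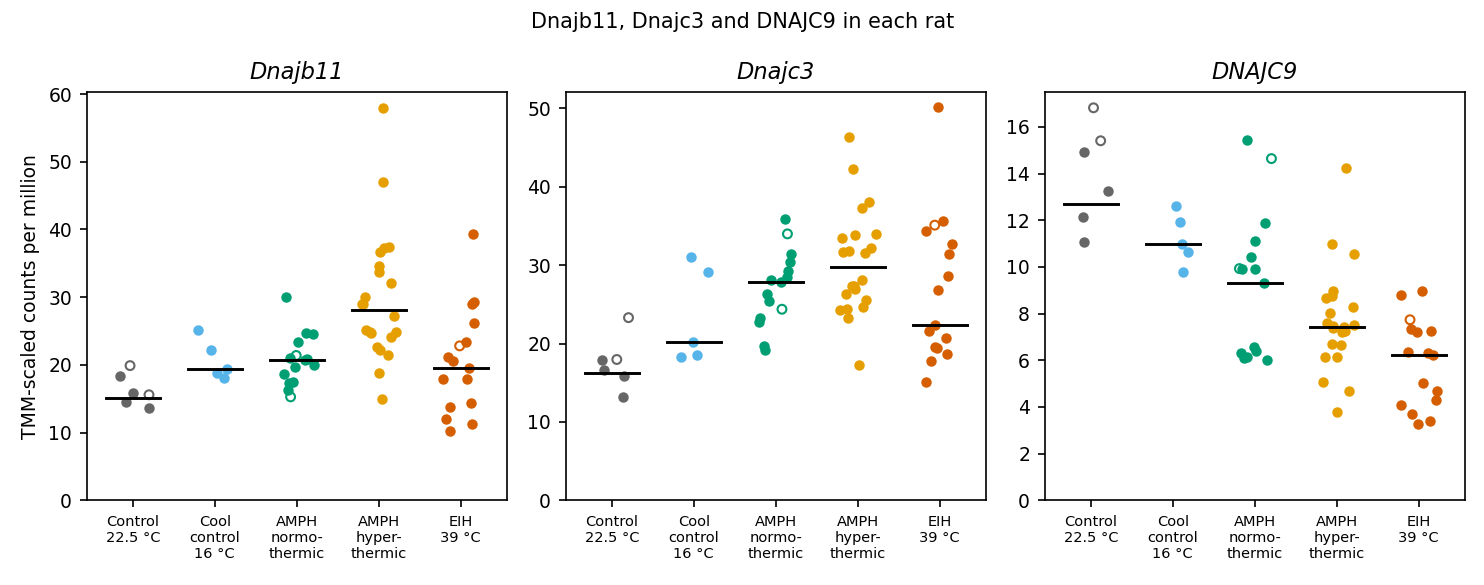
CPM of Dnajb11, Dnajc3 and DNAJC9 by treatment group, 1 point per rat. Filled points were in the fit, hollow points are rats left out for Mb, and lines are medians of the filled points. The Dnajb11 median was 28.1 in AMPH hyperthermic and 19.5 in EIH rats, and all EIH points of DNAJC9 lie below the Control points.

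DNAJC9 was lower in EIH rats, and AMPH hyperthermic rats lay between. Control rats had 12.1, 14.9, 11.1 and 13.2 CPM and Cool control rats 9.77, 11.0, 12.6, 10.7 and 11.9. AMPH normothermic rats had 6.00 to 15.4 (median 9.30), AMPH hyperthermic rats 3.79 to 14.2 (median 7.43) and EIH rats 3.28 to 8.98 (median 6.23). The highest of the AMPH hyperthermic values was that of the library labelled replicate 17. DNAJC9 had a difference of -0.70 ± 0.22 log2 in AMPH hyperthermic against Control rats (adjusted p = 0.07). Without that library the difference was -0.81 ± 0.21 (adjusted p = 0.0098), past the threshold, so the call depended on it.

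Dnajc13 had 31.7, 30.3, 25.4 and 27.0 CPM in Control and 19.0, 19.6, 21.4, 19.7 and 25.6 in Cool control rats. It had 17.1 to 33.1 (median 23.5) in AMPH normothermic, 0.984 to 41.3 (median 28.4) in AMPH hyperthermic and 21.6 to 42.0 (median 31.6) in EIH rats, and it was higher in EIH than in AMPH normothermic rats in 5 of 5 projects. Its gain in EIH over AMPH normothermic rats did not pass without the project term (0.36 log2, edgeR adjusted p = 0.15), with project as a random block (limma-voom adjusted p = 0.26) or with the replicate block in its place (edgeR adjusted p = 0.20). Dnaja3 had 8.94, 9.57, 5.00 and 6.61 in Control and 5.43, 5.87, 6.25, 6.87 and 4.42 in Cool control rats. It had 3.94 to 6.12 (median 4.68) in AMPH normothermic, 1.59 to 9.19 (median 6.52) in AMPH hyperthermic and 4.03 to 8.64 (median 6.32) in EIH rats. The AMPH normothermic median of Dnaja3 was the lowest of the 5 groups, and the Control median the highest.

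The other members that changed over the 5 groups had low counts or small differences. They passed in no comparison of 2 groups with the library labelled replicate 17 in the fit. Without it, Dnajc24 and Dnajc27 passed as lower in EIH against Control rats. Dnajc12, which binds the aromatic amino acid hydroxylases, had means of 1.34 ± 0.41 (SD, n = 4) in Control, 1.39 ± 0.921 (n = 5) in Cool control, 1.32 ± 0.479 (n = 13) in AMPH normothermic, 1.86 ± 0.85 (n = 22) in AMPH hyperthermic and 2.04 ± 1.43 (n = 15) in EIH rats (overall adjusted p = 0.027). These are unadjusted means, and the fit with the project term ranked Control highest and Cool control lowest for Dnajc12, which differed by -2.08 log2 without passing (Cool control less Control, adjusted p = 0.26). Dnajc16 had 2.35 ± 0.632 (SD, n = 4) in Control, 1.37 ± 0.103 (n = 5) in Cool control, 2.63 ± 0.843 (n = 13) in AMPH normothermic, 3.46 ± 1.66 (n = 22) in AMPH hyperthermic and 4.04 ± 2.30 (n = 15) in EIH rats (adjusted p = 0.023). All 5 Cool control rats were below every Control rat in Dnajc16, a difference of -1.36 ± 0.61 log2 that did not pass (adjusted p = 0.52). EIH had the highest mean of Dnajc16, also in the fit. Dnajc24, which serves in diphthamide synthesis, had 2.00 ± 0.53 (SD, n = 4) in Control, 2.18 ± 0.668 (n = 5) in Cool control, 1.70 ± 0.781 (n = 13) in AMPH normothermic, 1.57 ± 0.524 (n = 22) in AMPH hyperthermic and 1.13 ± 0.497 (n = 15) in EIH rats (adjusted p = 0.046). EIH had the lowest mean of Dnajc24, also in the fit. Dnajc27, a small GTPase with a J domain, had 3.22 ± 1.12 (SD, n = 4) in Control, 2.05 ± 0.474 (n = 5) in Cool control, 1.74 ± 0.432 (n = 13) in AMPH normothermic, 1.33 ± 0.88 (n = 22) in AMPH hyperthermic and 1.35 ± 0.474 (n = 15) in EIH rats (adjusted p = 0.037). Control had the highest mean of Dnajc27, with a difference of -1.11 ± 0.39 log2 in AMPH hyperthermic against Control rats (adjusted p = 0.096). Without the library labelled replicate 17 it was -1.49 ± 0.35 (adjusted p = 0.005), past the threshold.

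Textbook members of wide expression passed neither the test over groups nor any comparison. Dnajb6, which holds back protein aggregation, had mean CPM of 54.1 ± 3.18 (SD, n = 4) in Control, 63.4 ± 5.60 (n = 5) in Cool control, 80.3 ± 15.2 (n = 13) in AMPH normothermic, 64.1 ± 16.8 (n = 22) in AMPH hyperthermic and 77.5 ± 32.2 (n = 15) in EIH rats (overall adjusted p = 0.12). Control had the lowest mean of Dnajb6, also in the fit, where Cool control ranked highest. Dnajb4, a cytosolic relative of Dnajb1, had 6.96 ± 2.15 (SD, n = 4) in Control, 5.99 ± 0.917 (n = 5) in Cool control, 6.99 ± 1.4 (n = 13) in AMPH normothermic, 7.61 ± 2.23 (n = 22) in AMPH hyperthermic and 14.0 ± 10.3 (n = 15) in EIH rats (adjusted p = 0.86). The highest single value of Dnajb4 was 34.7 in EIH and 13.2 in AMPH hyperthermic rats, and its difference between EIH and AMPH normothermic rats was 0.07 ± 0.19 log2 (adjusted p = 0.85), with EIH higher in 1 of 5 projects. Dnajc7, which joins Hsp70 and Hsp90 through repeats beside its J domain, had 47.9 ± 3.39 (SD, n = 4) in Control, 44.7 ± 3.49 (n = 5) in Cool control, 46.7 ± 7.35 (n = 13) in AMPH normothermic, 43.3 ± 7.74 (n = 22) in AMPH hyperthermic and 43.0 ± 6.51 (n = 15) in EIH rats (adjusted p = 0.13). Dnajc5, the cysteine string protein, had 7.23 ± 0.933 (SD, n = 4) in Control, 6.92 ± 1.21 (n = 5) in Cool control, 9.26 ± 1.74 (n = 13) in AMPH normothermic, 8.79 ± 1.72 (n = 22) in AMPH hyperthermic and 8.91 ± 2.07 (n = 15) in EIH rats (adjusted p = 0.27). Dnajc15, of the mitochondrial inner membrane, had 2.97 ± 0.683 (SD, n = 4) in Control, 3.48 ± 1.2 (n = 5) in Cool control, 2.73 ± 1.09 (n = 13) in AMPH normothermic, 2.95 ± 1.01 (n = 22) in AMPH hyperthermic and 2.09 ± 0.613 (n = 15) in EIH rats (adjusted p = 0.083), with EIH the lowest.

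By class, the Dnaja genes split evenly in EIH against Control rats. Dnaja1 and Dnaja4 had positive differences there, and Dnaja2 and Dnaja3 negative ones that did not pass. The split was also 2 and 2 in AMPH hyperthermic against Control rats. In AMPH hyperthermic against AMPH normothermic rats all 4 were positive and 3 passed. In EIH against AMPH normothermic rats 3 were positive and 2 passed. The median difference in EIH against Control rats was 0.77 log2 over 4 Dnaja, 0.20 over 10 Dnajb and -0.33 over 24 Dnajc genes, beside -0.04 over all genes. In AMPH hyperthermic against AMPH normothermic rats the medians were 0.57, -0.04 and 0.02, beside 0.02 over all genes. In AMPH hyperthermic against Control rats they were 0.59, 0.24 and -0.19, beside -0.03. Summed over its members, the Dnaja class had 136 CPM (median of Control rats) and 1342 (median of EIH rats), a sum made up largely of Dnaja1. The Dnajc class had 305 and 286. These sums are descriptions and were not tested.

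**Figure D4:**
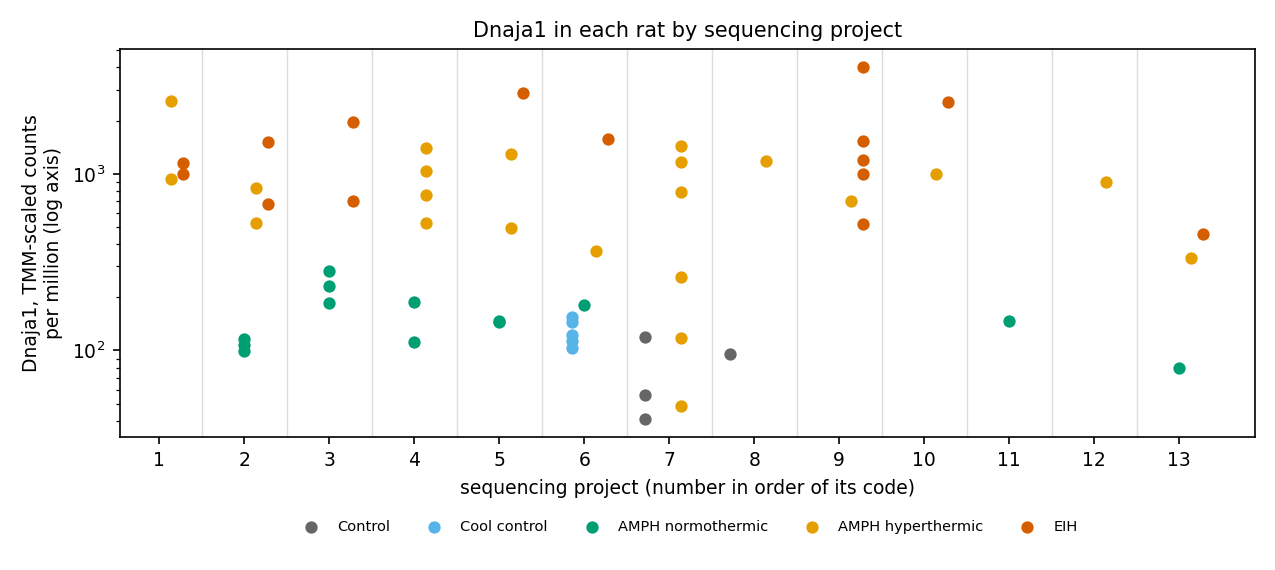
CPM of Dnaja1 (log axis) in each rat of the fit, by sequencing project (x axis) and treatment group (colour). Control rats are in 2 of the 13 projects and Cool control rats in 1. In each of the 5 projects with both groups, the AMPH normothermic rats lie below the EIH rats.

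The Hsp70 family and its other regulators, a list of 29 symbols, were set beside the members. The list had 28 symbols tested through 31 identifiers, and 15 identifiers changed over the 5 groups. Between AMPH hyperthermic and Control rats 9 were higher and 0 lower. The higher ones were Bag3, Hspa1b (both identifiers), Hspa5, Hspa8 (both identifiers), Hsph1, St13 and Stip1. In EIH against Control rats 7 were higher and 0 lower, namely Bag3, Hspa1b (both identifiers), Hspa8 (ENSRNOG00000009920), Hsph1, St13 and Stip1. In AMPH hyperthermic against AMPH normothermic rats 14 were higher, namely Bag3, Hspa14 (ENSRNOG00000015212), Hspa1b (both identifiers), Hspa1l, Hspa4, Hspa5, Hspa8 (both identifiers), Hspbp1, Hsph1, Hyou1, St13 and Stip1. In EIH against AMPH normothermic rats 12 were higher, namely Bag3, Hspa1b (both identifiers), Hspa1l, Hspa4, Hspa4l, Hspa8 (both identifiers), Hspbp1, Hsph1, St13 and Stip1, and 1, Grpel1, was lower. The comparisons of AMPH normothermic with Cool control, of Cool control with Control and of the AMPH effects at the 2 room temperatures gave 0 of the 31.

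Hsph1, an exchange factor for Hsp70, was higher by 7.09 ± 1.18 log2 in EIH against Control rats, and Hspa8, the constitutive cytosolic Hsp70 (ENSRNOG00000009920), by 2.48 ± 0.52. Hspa1b, the inducible Hsp70, was listed under 2 identifiers with identical counts, so its reads could not be placed. Its level was 0.356 to 0.68 CPM in Control rats and 57.0 to 8923 in EIH rats. Hspa5, the ER partner of Dnajb11 and Dnajc3, was higher by 1.60 ± 0.33 in AMPH hyperthermic against Control rats and by 0.86 ± 0.22 against AMPH normothermic rats, and its EIH against Control difference of 0.93 ± 0.37 did not pass. AMPH hyperthermic against EIH rats gave 2 higher. These were Hyou1, an ER exchange factor, by 0.81 ± 0.21 and the identifier ENSRNOG00000015212 of Hspa14, a ribosome-associated Hsp70, by 0.47 ± 0.11.

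Blood cell markers differed between groups. The summed level of 5 T cell markers was 175 to 287 CPM in Control, 38.3 to 299 in AMPH hyperthermic and 40.3 to 172 in EIH rats, and 1 of the 5 was lower in EIH against Control rats. For 5 monocyte markers the ranges were 159 to 405, 179.8 to 797 and 189 to 1064, with 1 higher in EIH against Control rats. The 5 platelet markers had 565 to 1521, 572 to 5417 and 1597 to 7886, with 2 higher in each of these groups than in Control. The 7 neutrophil markers had 1207 to 15728, 1789 to 35889 and 2142 to 11890.3, with 1 higher in AMPH hyperthermic than in Control rats. The 5 B cell markers had 134 to 480.0, 79.1 to 486 and 94.5 to 414, and 0 passed against Control. The 7 reticulocyte markers had 54341 to 81150.3, 26596 to 453051 and 23128 to 702929, and 0 passed against Control. The 7 heart muscle markers had 0.158 to 14.6, 0 to 87.8 and 0.137 to 69.1 in rats of the fit, and 0 passed in any comparison. In Cool control rats the sums were 135 to 171 for T cells, 193 to 332 for B cells and 306 to 528 for monocytes. They were 13068 to 30085 for neutrophils, 1693 to 3282 for platelets and 52541 to 105719 for reticulocytes. The T cell and platelet ranges did not overlap with those of Control rats, and 0 markers passed in Cool control against Control. In AMPH normothermic rats the sums were 85.2 to 193 for T cells, 96.3 to 247 for B cells and 333 to 613 for monocytes. They were 8854 to 26179 for neutrophils, 851 to 4063 for platelets and 50922 to 204192 for reticulocytes. In AMPH hyperthermic against AMPH normothermic rats 2 reticulocyte markers were lower and 1 platelet marker higher. In EIH against AMPH normothermic rats 1 T cell and 2 neutrophil markers were lower, and 1 B cell and 1 monocyte marker higher. Between AMPH hyperthermic and EIH rats 1 monocyte marker was lower in the former. In bulk blood, fewer cells of a type and less RNA per cell cannot be told apart, and the part of cell composition in the differences of the members was not tested.

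Within groups, the levels of Dnaja1 and of other heat-responsive genes were correlated across rats, as log2 CPM. The 9 relations were chosen after the values were seen. Each is given as Pearson's r and Spearman's rho with 2-sided permutation p-values (100000 permutations, smallest possible p 1e-05) and their Benjamini-Hochberg adjusted values over the 9, then as r without the 2 rats farthest from the median of Dnaja1, and as r after centring within sequencing projects that held at least 2 rats of the group.

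In AMPH hyperthermic rats (n = 22, 16 of them centred) Dnaja1 and Dnajb1 had r = 0.89 (permutation p = 1e-05, adjusted 4.5e-05), rho = 0.80 (permutation p = 1e-05, adjusted 9e-05), r = 0.76 without the 2 farthest rats and r = 0.95 after centring. Dnaja1 and Hsph1 had r = 0.88 (permutation p = 1e-05, adjusted 4.5e-05), rho = 0.70 (permutation p = 0.00049, adjusted 0.0015), r = 0.66 without the 2 farthest rats and r = 0.95 after centring. Both relations thus held in each form. Dnaja1 and Dnaja4 had r = 0.55 (permutation p = 0.011, adjusted 0.025), rho = 0.26 (permutation p = 0.24, adjusted 0.31), r = -0.03 without the 2 farthest rats and r = 0.63 after centring, so the last relation rested on the 2 farthest rats. Without the library labelled replicate 17 alone, r before centring was 0.84 with Dnajb1, 0.80 with Hsph1 and 0.25 with Dnaja4. The r after centring was not computed without it, so whether the centred relations rest on that library is not known.

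In EIH rats (n = 15, 11 centred) Dnaja1 and Hsph1 had r = 0.83 (permutation p = 0.00011, adjusted 0.00033), rho = 0.81 (permutation p = 0.00042, adjusted 0.0015), r = 0.71 without the 2 farthest rats and r = 0.96 after centring. Dnaja1 and Dnajb1 had r = 0.53 (permutation p = 0.044, adjusted 0.066), rho = 0.51 (permutation p = 0.057, adjusted 0.1), r = 0.31 without the 2 farthest rats and r = 0.58 after centring, and Dnaja1 and Dnaja4 r = 0.35 (permutation p = 0.2, adjusted 0.25), rho = 0.41 (permutation p = 0.12, adjusted 0.19), r = 0.18 without the 2 farthest rats and r = 0.40 after centring. Only the relation with Hsph1 passed the correction.

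In AMPH normothermic rats (n = 13, 10 centred) Dnaja1 and Dnajb1 had r = 0.64 (permutation p = 0.019, adjusted 0.035), rho = 0.68 (permutation p = 0.013, adjusted 0.028), r = 0.71 without the 2 farthest rats and r = -0.07 after centring, so the relation did not hold within projects. Dnaja1 and Hsph1 had r = -0.25 (permutation p = 0.41, adjusted 0.46), rho = -0.32 (permutation p = 0.28, adjusted 0.32), r = -0.15 without the 2 farthest rats and r = -0.36 after centring. Dnaja1 and Dnaja4 had r = 0.06 (permutation p = 0.83, adjusted 0.83), rho = 0.01 (permutation p = 0.99, adjusted 0.99), r = 0.27 without the 2 farthest rats and r = -0.20 after centring. Whether the relations differed between groups was not tested.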

How the data were processed

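RNA from whole blood of 64 rats was depleted of globin transcripts, made into stranded TruSeq libraries and sequenced on a HiSeq 2000. The authors demultiplexed with CASAVA 1.8.2, trimmed with fastq-mcf, aligned with Bowtie 0.12.9 to Ensembl 70 (rn5) transcripts and estimated counts with RSEM 1.2.0, and deposited expected counts per gene, 1 file per rat. RSEM shares ambiguous reads among similar genes, and 33 of the 38 members had values more than 0.01 from a whole number in some rat. The study's text says that the first sequencing of its control set Con4 used a faulty library kit and was repeated. Con4 had 6 rats, of which 4 remained after the Mb limit. The Control group here matches it, with 6 rats and 4 in the fit. The labels do not say whether its libraries are from the first or the repeated sequencing. Projects were read from the code in each file's name. No dose was taken from the labels.

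Counts were rounded, genes reaching 10 counts in 5 or more rats were kept, and the 13978 genes were fitted with edgeR 4.0.16 (R 4.3.3; TMM factors, quasi-likelihood, terms for group and project) in the 59 rats at or below 5000 Mb counts. Called means a Benjamini-Hochberg adjusted p under 0.05 over all genes. The common biological coefficient of variation was 0.419. CPM used the TMM-scaled library totals, and differences within projects used log2 of that value plus 0.5. Each rat is 1 replicate, and p-values measure the spread between rats. Totals of 19055615 to 40530319 counts set the counting precision.

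Named members were, per class, up to 8 of those changed over the groups, ranked by spread of fitted means, at least 3 by lowest p, 11 textbook members, and any member called in 1 comparison. The members and lists were chosen with earlier results of these data known. Alternatives used no project term, limma-voom 3.58.1 with project as a random block, DESeq2 1.42.0, median-ratio factors, no filter, all rats, a replicate block and left-out rats. The scripts were tested on simulated data. Tables and figures used Python 3.11.15, pandas 2.3.3, scipy 1.17.1 and matplotlib 3.10.9.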

Additional observations from a re-analysis of the deposited data

Results flagged for a closer look

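The left-out EIH replicate 12, whose blood had more than 5000 Mb counts, had the heat-inducible members at EIH levels. Its Dnaja1 was at 1755 CPM, against at most 119 in a Control rat of the fit. Its Dnaja4 was at 60.5, against at most 21.4, and its Dnajb1 at 126, against at most 24.4. These values were picked out because they come from a rat that was left out of the fit. Only the alternative that kept all rats included that rat. The search for a single rat far outside its group covered the Control and Cool control values of the 19 named members, 38 sets in all, and found 0. The other 3 groups held more than 10 rats and were not searched, so the libraries labelled AMPH hyperthermic replicates 17 and 21 were outside it. The difference between the AMPH effects at the 2 room temperatures passed for 0 members by edgeR, beside 0.0% of all genes. At an unadjusted p under 0.05 there were 5 members, beside 1038 of the 13978 genes. By DESeq2 it passed for 1 member, beside 0.372% of all genes.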

How the results depend on the processing

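Under 17 alternatives, 20 differences of single members gave 340 values. Of these, 314 kept their direction and call, 26 were no longer past the threshold and 0 changed sign. The losses were 8 under the replicate block, 7 without Control replicate 21, 4 each without Control replicates 17 and 18, 2 with project as a random block and 1 without the project term. The AMPH hyperthermic and EIH against AMPH normothermic calls of Dnaja1, Dnajb1 and Dnaja4 held under all 17. The alternatives that left out a Control or Cool control rat removed no rat of the groups compared there. They could hardly change those calls, which also count in the 314. The share of all genes called moved with the members' counts, and stands in brackets. Without the project term, 8 members (13.1%) were called in AMPH hyperthermic against Control, 14 (26.3%) in EIH against Control, 5 (9%) in AMPH hyperthermic against EIH and 1, Dnaja1, (0.15%) in the difference of the AMPH effects. With project as a random block the first 2 of these counts were 8 (15.4%) and 9 (15.7%). DESeq2 called 9 members (12.9%) in AMPH hyperthermic against AMPH normothermic, 3 (5.52%) in AMPH hyperthermic against EIH and 1 (0.372%) in the difference of the AMPH effects. The cause was not tested.

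Replicate numbers do not pair the rats: same-numbered rats of different groups had a mean correlation of deviations of 0.0226 over 59 pairs, 16 of them above 0.1. The replicate block, which replaced the project term, called 1 member (0.286%) in AMPH hyperthermic against Control and 0 (0.0%) in EIH against Control. It called 2 (4.05%) in AMPH hyperthermic against EIH. In EIH against Control 10 members were at an unadjusted p under 0.05, beside 2343 of the 13978 genes. Single rats were left out in turn (each Control and Cool control rat, and the library labelled AMPH hyperthermic replicate 17). Shares of all genes stand in brackets. AMPH hyperthermic against Control gave 0 to 8 members (0.0572% to 15%) and EIH against Control 1 to 8 (0.0358% to 14.2%). AMPH hyperthermic against AMPH normothermic gave 5 to 5 (9.94% to 11.2%) and EIH against AMPH normothermic 6 to 7 (13.9% to 15%). AMPH hyperthermic against EIH gave 1 to 2 (2.5% to 3.01%), and the test over the 5 groups gave 10 to 14 (20.9% to 33.2%). The other comparisons gave 0 (0.0% to 0.0143%). No AMPH normothermic or EIH rat was left out. The ranges that involve no Control or Cool control group thus say little about dependence on single rats. The top of both ranges against Control, 8, came without the library labelled AMPH hyperthermic replicate 17, and the bottom without Control replicate 21. That AMPH hyperthermic library was left out because of its own Dnaja1 and Hspa1b values, so the larger counts without it are no support for the members. Without Control replicate 19 the counts against Control were 6 (9.73%) and 5 (9.93%). Depth ranged from 19055615 to 40530319 counts, and its part in the calls was not tested.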
